A study of Mus musculus with 8 samples.

Results

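*Hmox1*, the gene of the inducible heme oxygenase, was examined in mouse heart ventricles at E15.5 together with 9 genes of antioxidant defence and of heme and iron handling. The set held *Hmox1*, *Hmox2*, *Nqo1*, *Gclc*, *Gclm*, *Txnrd1*, *Srxn1*, *Nfe2l2*, *Fth1* and *Blvrb*. These 10 of 53465 genes in the table were matched by symbol to Ensembl identifiers, and all 10 were among the 15580 genes that passed the filter on low counts. The set was chosen by function around *Hmox1*, whose higher level in the same comparison was already known, so the values, intervals and calls of the 10 genes are given as a description and test nothing about the set. The question behind the comparison was whether the other targets of NRF2, or the other genes of heme and iron handling, differed alongside *Hmox1*.

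The libraries came from 2 genotypes with 4 libraries each, and 1 ventricle sample stood behind each replicate. *Nrg1GOF* embryos carried the Rosa26Nrg-1 allele, which overproduces neuregulin-1, the secreted growth factor that activates ErbB receptors, in cells where a cardiac Cre driver was active. The series title names this driver as Nkx2.5-Cre, whereas the genotype label of the samples reads Nkx5.5-Cre. The other group was wild type (WT), and the sources used here name no Cre-only control, so Cre and the transgene cannot be told apart. Poly(A) RNA was sequenced, and the unit of level throughout is CPM (counts-per-million), scaled to library size with TMM factors. Every log2 fold change sets *Nrg1GOF* against WT, positive where *Nrg1GOF* was higher.

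Heme oxygenases cut heme into iron, carbon monoxide and biliverdin, and biliverdin reductases turn the last of these into bilirubin. Freed iron is stored in ferritin or leaves the cell through ferroportin. *Hmox1* is also a classical target of the transcription factor NRF2, which the adaptor KEAP1 marks for degradation in unstressed cells. When NRF2 escapes degradation, it binds antioxidant response elements with small MAF proteins and raises genes of glutathione, thioredoxin and NADPH metabolism. BACH1 occupies the same elements as a repressor and is released from them by heme. Macrophages that clear red blood cells are rich in *Hmox1*.

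The library totals ranged from 8038641 to 26786039 expected counts, with *Nrg1GOF* library 4 the shallowest. *Nrg1* itself lay between 59.7 and 63.7 CPM in *Nrg1GOF* and between 3.07 and 4.47 CPM in WT, a log2 fold change of 3.94 (SE 0.10, n = 4 per group). Within WT, libraries 1 and 2 formed a close pair and libraries 3 and 4 another, and values against each WT pair alone are given for some genes. A gene was called when its adjusted p in the quasi-likelihood test of edgeR was under 0.05. By this measure 4467 of 15580 genes (28.7%) were called, 2474 (15.9%) higher and 1993 (12.8%) lower in *Nrg1GOF*. When libraries were scaled by their totals alone, 2874 genes were called higher and 1521 lower. The 2 groups did not overlap in 4789 genes (30.7%).

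*Hmox1* (ENSMUSG00000005413, GRCm38 chromosome 8, 75093621 to 75100589, plus strand) was present at 38.8, 43.7, 35.2 and 40.1 CPM in *Nrg1GOF* libraries 1 to 4. In WT libraries 1 to 4 it stood at 11.7, 10.5, 11.3 and 9.87 CPM. Every *Nrg1GOF* library was above every WT library, and the spread within each group was small beside the gap. The mean was 39.4 ± 3.52 CPM (SD, n = 4) in *Nrg1GOF* and 10.9 ± 0.82 CPM (SD, n = 4) in WT, a ratio of 3.63. The log2 fold change was 1.86 (SE 0.09, 95% interval 1.66 to 2.05), which placed *Hmox1* at rank 95 of 15580 genes ordered from the highest log2 fold change. Between 193 and 917 counts per library stood behind these levels.

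*Hmox2* (ENSMUSG00000004070, chromosome 16, 4726361 to 4766742), the constitutive heme oxygenase, was at 56.0, 54.2, 51.1 and 51.4 CPM in *Nrg1GOF* and at 55.5, 56.4, 56.8 and 59.4 CPM in WT. The groups overlapped, the log2 fold change was -0.10 (SE 0.05, 95% interval -0.21 to 0.01), and *Hmox2* was not called. Its exons share 892 bases with *Cdip1* on the opposite strand. Per kb of exon sequence, *Hmox1* reached between 0.211 and 0.268 of the level of *Hmox2* in the WT libraries. In *Nrg1GOF* the same ratio ran from 0.871 to 1.02, so by this measure the transcript level of the inducible gene came close to that of the constitutive one. The length used was that of all annotated exons joined, so levels per kb compared between genes depend on the annotation.

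**Figure D1:**
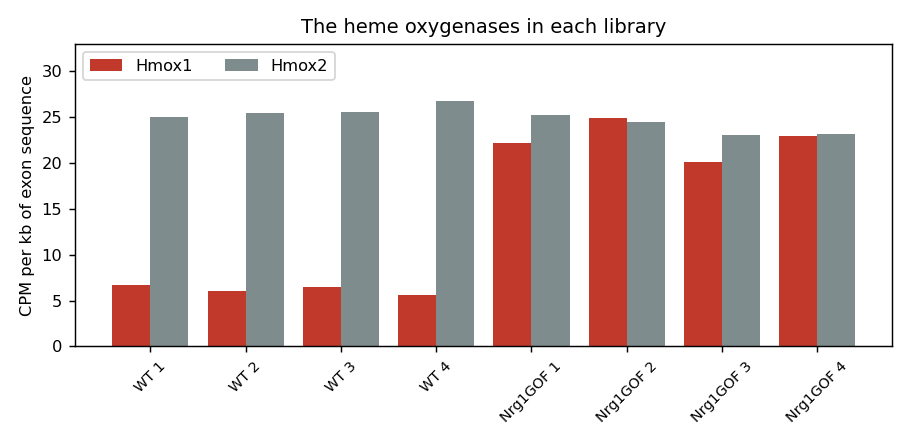
Level of *Hmox1* and *Hmox2* in CPM per kb of exon sequence on the y axis, with 1 pair of bars for each of the 8 libraries on the x axis. The *Hmox1* bars are far below the *Hmox2* bars in WT (ratio 0.211 to 0.268) and near them in *Nrg1GOF* (ratio 0.871 to 1.02).

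*Blvrb*, which encodes a biliverdin reductase that is abundant in red blood cells, was at 11.0, 14.2, 11.8 and 12.9 CPM in *Nrg1GOF* and at 15.8, 14.3, 10.8 and 10.7 CPM in WT. The WT libraries spanned the whole range of the *Nrg1GOF* libraries, with WT 1 and 2 high and WT 3 and 4 low. Its log2 fold change was -0.05 (SE 0.15), -0.28 against WT 1 and 2 alone and 0.22 against WT 3 and 4 alone, and it was not called in any of them. *Fth1*, the ferritin heavy chain, averaged 418 ± 42.8 CPM (SD, n = 4) in *Nrg1GOF* and 435 ± 14.0 CPM (SD, n = 4) in WT. Its log2 fold change was -0.06 (SE 0.07, 95% interval -0.22 to 0.11), and the groups overlapped.

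Of the NRF2 arm, *Srxn1*, the sulfiredoxin that repairs over-oxidised peroxiredoxins, was at 12.0, 11.0, 10.1 and 8.75 CPM in *Nrg1GOF* and at 7.18, 7.91, 7.40 and 7.83 CPM in WT. All *Nrg1GOF* libraries were above all WT libraries, with *Nrg1GOF* library 4 the nearest to WT. The log2 fold change was 0.48 (SE 0.11, 95% interval 0.23 to 0.73), and *Srxn1* was called higher. The call was lost against WT 1 and 2 alone, where the log2 fold change was 0.49, with the WT pairs summed, with all libraries thinned to the smallest total and with macrophage markers as a covariate, and held in the other 18 of 22 alternative settings.

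*Nqo1*, the quinone reductase that often serves as the readout of NRF2 activity, was at 3.54, 3.43, 3.42 and 4.25 CPM in *Nrg1GOF* and at 3.36, 3.71, 3.88 and 3.32 CPM in WT. Its log2 fold change was 0.02 (SE 0.14, 95% interval -0.30 to 0.35). The libraries of both genotypes were interleaved, and the interval leaves room for a change of up to 0.35 on the log2 scale.

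*Gclc* and *Gclm* encode the catalytic and the modifier subunit of the enzyme that limits glutathione synthesis. *Gclc* averaged 24.1 ± 1.39 CPM (SD, n = 4) in *Nrg1GOF* and 22.4 ± 0.42 CPM (SD, n = 4) in WT, a log2 fold change of 0.10 (SE 0.06). *Gclm* was at 58.5, 78.0, 64.8 and 90.6 CPM in *Nrg1GOF* and at 74.3, 59.5, 52.7 and 62.0 CPM in WT, a log2 fold change of 0.22 (SE 0.14, 95% interval -0.09 to 0.54). *Gclm* had the widest spread relative to its mean of the 10 genes in *Nrg1GOF*, and neither subunit was called. The exons of *Gclm* share 244 bases with *Gm6061* on the same strand, and a stretch of 76 bases is 96.1% identical to *Btbd9*, so some of its reads may be shared.

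*Txnrd1*, the cytosolic thioredoxin reductase, was at 109, 108, 101 and 109 CPM in *Nrg1GOF* and at 114, 114, 111 and 112 CPM in WT. The groups did not overlap and *Nrg1GOF* was the lower, but the log2 fold change of -0.08 (SE 0.05) was not called. The transcript of NRF2 itself, *Nfe2l2*, lay between 58.8 and 68.5 CPM in *Nrg1GOF* and between 61.6 and 66.8 CPM in WT. Its log2 fold change was -0.02 (SE 0.06, 95% interval -0.15 to 0.11). NRF2 is regulated mainly through the stability of the protein, which RNA-seq does not measure.

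**Figure D2:**
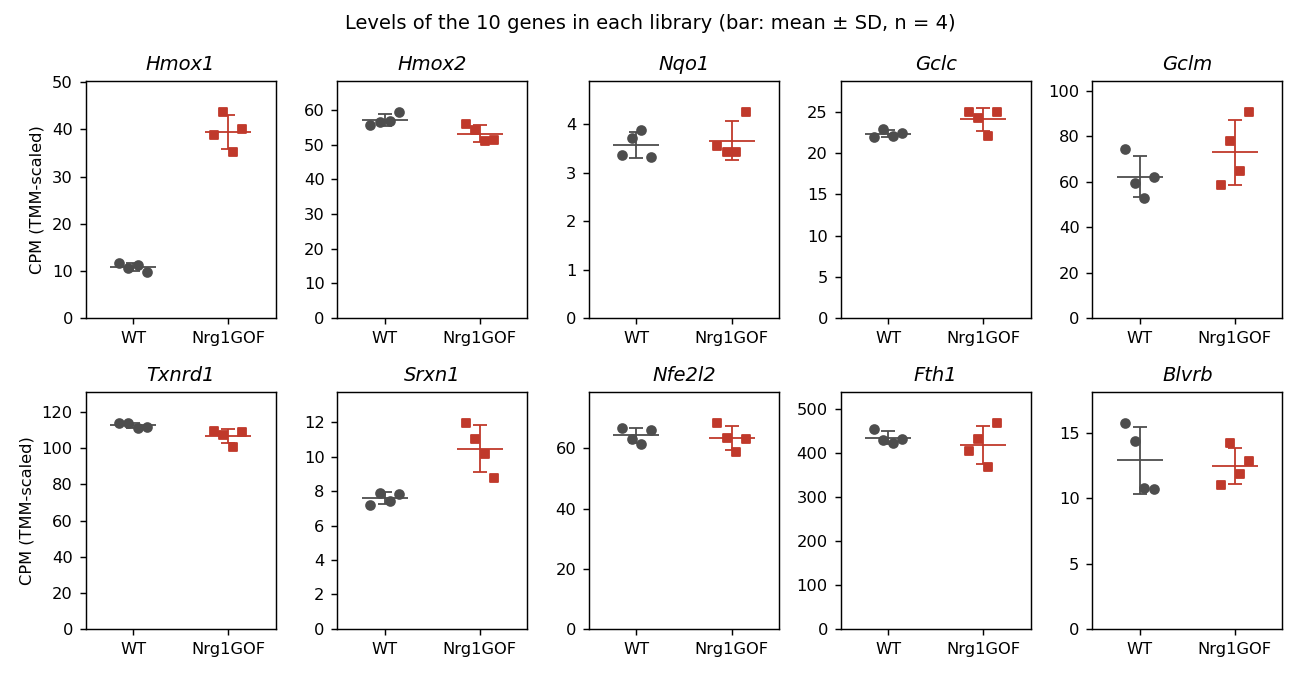
Level of each of the 10 genes in the 4 *Nrg1GOF* and 4 WT libraries, in CPM on the y axis of 1 panel per gene, with 1 point per library and a bar for the mean ± SD of each group. *Hmox1* shows a wide gap (means 39.4 and 10.9 CPM) and *Srxn1* a small one (10.5 and 7.58 CPM), *Txnrd1* lies slightly lower in *Nrg1GOF*, and the points of the other 7 genes overlap.

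In all, 2 of the 10 genes were called higher and 0 were called lower (0 also at an unadjusted p under 0.05 and with DESeq2 or limma), and 3 did not overlap between the groups. Over all tested genes 15.9% were called higher, 12.8% were called lower and 30.7% did not overlap. The median absolute log2 fold change of the 10 was 0.09, against 0.20 over all tested genes. Since *Hmox1* was the reason for the choice, nothing is read from the count.

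By level per kb of exon sequence, *Fth1* led in WT with 125 CPM per kb, followed by *Hmox2* with 25.7, *Nfe2l2* with 17.0, *Txnrd1* with 15.9 and *Gclm* with 9.87. *Hmox1* followed at 6.20 CPM per kb, and the libraries of *Gclc*, at a mean of 5.94, lay within its range of 5.64 to 6.70. *Blvrb*, *Srxn1* and *Nqo1* were the lowest, at 4.64, 2.69 and 2.30 CPM per kb. In *Nrg1GOF*, *Hmox1* stood at 22.5 CPM per kb, in place 3 instead of place 6 of the 10, and its libraries overlapped those of *Hmox2* above it. In that group *Txnrd1* also overlapped *Gclm*, and *Blvrb* overlapped *Srxn1*.

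The NRF2 program was followed further in a list of 36 other target genes, of which 5 did not pass the filter. Of the 31 tested, 10 (32.3%) were called higher, 1 (3.23%) was called lower and 20 were not called. Over all tested genes 15.9% were called higher and 12.8% lower. The groups did not overlap, in either direction, in 14 of the 31, against 30.7% of all tested genes. The median log2 fold change of the list was 0.19, against -0.01 over all tested genes. The largest log2 fold change among those called was 0.70, against 1.86 for *Hmox1*.

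*Mgst1*, a membrane-bound glutathione transferase, was at 23.4, 23.2, 16.8 and 25.0 CPM in *Nrg1GOF* and at 13.8, 12.1, 13.3 and 14.8 CPM in WT. Its log2 fold change was 0.70 (SE 0.12, edgeR quasi-likelihood adjusted p = 0.00239), and all *Nrg1GOF* libraries were above all WT libraries. *Akr1b8*, an aldo-keto reductase, rose by 0.63 (SE 0.13, edgeR adjusted p = 0.00475). *Ugdh*, which makes the UDP-glucuronate used for glucuronidation and for matrix glycans, rose by 0.62 (SE 0.09, edgeR adjusted p = 0.000652). *G6pdx* and *Tkt*, both of the pentose phosphate pathway, rose by 0.29 (SE 0.08, edgeR adjusted p = 0.0247) and 0.25 (SE 0.05, edgeR adjusted p = 0.00497). The call of *G6pdx* held in 12 of 22 alternative settings. Of the same pathway, *Pgd* and *Taldo1*, named after their values were seen, each had a log2 fold change of -0.08 and were not called. The other 5 genes called higher, named after their values were seen, were *Abcc1*, *Ephx1*, *Gstm1*, *Me1* and *Gstm2*, with log2 fold changes from 0.34 to 0.62.

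*Abcc4*, an organic anion exporter, was the gene called lower, with a log2 fold change of -0.50 (SE 0.15, edgeR adjusted p = 0.0304), and its call held in 12 of 22 alternative settings. It was lost against either WT pair alone, with log2 fold changes of -0.48 against WT 1 and 2 and -0.51 against WT 3 and 4. *Slc7a11*, the cystine transporter subunit that feeds glutathione synthesis, lay between 1.75 and 3.04 CPM in *Nrg1GOF* and was at 0.879, 4.58, 1.74 and 1.23 CPM in WT libraries 1 to 4. WT library 2 was the highest and WT library 1 the lowest of the 8, and the log2 fold change of 0.14 (SE 0.47, edgeR adjusted p = 0.865) was not called. *Ftl1*, the ferritin light chain, averaged 706 ± 68.0 CPM (SD, n = 4) in *Nrg1GOF* and 619 ± 26.3 CPM (SD, n = 4) in WT, a log2 fold change of 0.19 (SE 0.07, edgeR adjusted p = 0.0782). The uncalled genes also included *Gsr*, *Prdx1* and *Txn1*, named after their values were seen, with log2 fold changes of 0.08, -0.07 and -0.005. These encode glutathione reductase, a peroxiredoxin and thioredoxin. *Gsta4* and *Sqstm1*, uncalled and also named after their values were seen, had log2 fold changes of 0.19 and 0.13. In both, all *Nrg1GOF* libraries were above all WT libraries. The highest log2 fold change on the list, 1.37 for *Cbr3* (SE 0.60), named after its values were seen, rested on levels under 0.7 CPM and was not called.

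**Figure D3:**
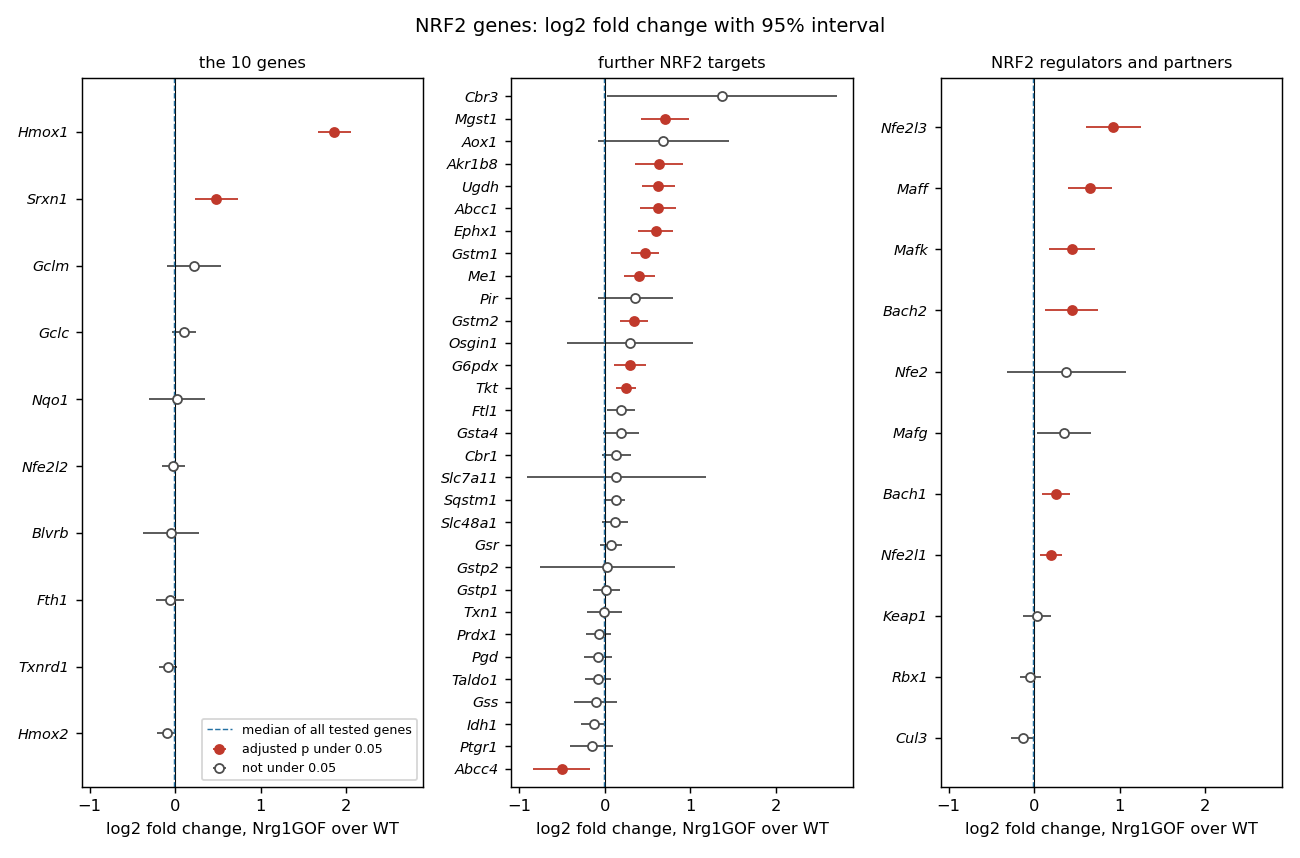
Log2 fold change of *Nrg1GOF* over WT on the x axis, with its 95% interval, for the 10 genes, the tested further targets of NRF2 and the regulators, partners and relatives of NRF2. Filled points are called genes and the dashed line is the median of all tested genes. *Hmox1* at 1.86 is the point farthest to the right, and the next called gene, *Nfe2l3*, is at 0.93.

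Among 11 regulators, partners and relatives of NRF2, 6 were called higher and 0 lower (0 also at an unadjusted p under 0.05 and with DESeq2 or limma), with a median log2 fold change of 0.35. That is 54.5% called higher, against 15.9% over all tested genes. With 1 library left out the number called higher was between 2 and 5, at 2 without WT library 3 or 4 and at 3 without *Nrg1GOF* library 1 or 2, and 1 gene was called lower without *Nrg1GOF* library 1. *Keap1* lay between 59.7 and 74.5 CPM in *Nrg1GOF* and between 60.2 and 65.4 CPM in WT, with a log2 fold change of 0.03 (SE 0.07, edgeR adjusted p = 0.804). *Cul3* and *Rbx1*, named after their values were seen, had log2 fold changes of -0.13 and -0.04 and were not called. *Bach1*, the heme-sensitive repressor of *Hmox1*, was at 69.9, 68.2, 62.7 and 62.8 CPM in *Nrg1GOF* and at 58.0, 61.2, 51.8 and 50.4 CPM in WT. It rose by 0.25 (SE 0.07, edgeR adjusted p = 0.0273), and the call held in 15 of 22 alternative settings. *Bach2*, its relative in lymphocytes, rose by 0.44 (SE 0.14, edgeR adjusted p = 0.0377), and this call held in 12 of 22.

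The small MAF genes, whose proteins pair with NRF2 and with BACH1, were also represented. *Maff* was at 15.8, 20.2, 17.1 and 20.4 CPM in *Nrg1GOF* and at 12.3, 9.82, 11.8 and 12.6 CPM in WT, a rise of 0.65 (SE 0.11, edgeR adjusted p = 0.00232). *Mafk* rose by 0.44 (SE 0.12, edgeR adjusted p = 0.0207), a call that held in 17 of 22 alternative settings. *Mafg*, named after its values were seen, had a log2 fold change of 0.35 (SE 0.14, edgeR adjusted p = 0.0943) and was not called. Of the NRF2 relatives, *Nfe2l3* averaged 8.46 ± 1.41 CPM (SD, n = 4) in *Nrg1GOF* and 4.43 ± 0.18 CPM (SD, n = 4) in WT, a rise of 0.93 (SE 0.14, edgeR adjusted p = 0.00115). *Nfe2l1*, a regulator of proteasome genes, rose by 0.20 (SE 0.06, edgeR adjusted p = 0.0298), a call that held in 10 of 22 alternative settings. *Nfe2*, the erythroid relative, also named after its values were seen, had a log2 fold change of 0.38 (SE 0.31, edgeR adjusted p = 0.413) and was not called.

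The promoters were searched for the core of the antioxidant response element, because it is the sequence through which NRF2 and BACH1 act. RefSeq windows of 300 bases on GRCm38.p6, from 250 bases before to 50 bases after the start site, were read for 8 of the 10 genes in 14 windows. The windows at hand held none for *Hmox1* or *Gclc*, so neither was searched. The core was written as TGACNNNGC and searched on both strands. It was found in 4071 of 32851 windows (12.4%), in 4 of the 14 windows (28.6%) and in 10 of 38 windows (26.3%) of the further targets. The form TGACTCAGC, which also contains the AP-1 motif TGACTCA, was found in 149 windows (0.454%), in 0 of the 14 and in 3 of the 38. The 4 matches of the set are shown because they include *Srxn1*, called higher, beside *Gclm*, *Txnrd1* and *Nfe2l2*, which were not called. *Me1* and *Prdx1* are shown for the form with TCA, which *Pir*, not called, also held. Capitals mark the core, and each sequence reads 5′ to 3′ on the strand of its gene.
Srxn1, chr2:152105542-152105570, plus strand: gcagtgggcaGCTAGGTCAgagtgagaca
Gclm, chr3:122245413-122245441, plus strand: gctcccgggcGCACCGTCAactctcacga
Txnrd1, chr10:82859104-82859132, plus strand: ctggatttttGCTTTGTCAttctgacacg
Nfe2l2, chr2:75704885-75704913, minus strand: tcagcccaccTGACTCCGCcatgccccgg
Me1, chr9:86695902-86695930, minus strand: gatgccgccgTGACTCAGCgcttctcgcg
Prdx1, chr4:116685456-116685484, plus strand: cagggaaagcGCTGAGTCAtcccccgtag
A match says only that these letters occur there, and sequence outside the windows was not searched. Genes with a match were found among those called higher (*Srxn1*, *Me1*, *Mgst1*, *G6pdx* and *Ugdh*), among those called lower (*Abcc4*) and among those not called (*Gclm*, *Txnrd1*, *Nfe2l2* and *Prdx1* among them).

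The heme and iron genes were read as 3 joined lists with 42 tested genes, of which 8 (19.0%) were called higher, 7 (16.7%) were called lower and 27 were not called. Over all tested genes the shares were 15.9% and 12.8%, close to those of the list. Their median log2 fold change was -0.04. In the 9 genes of heme synthesis, 2 were called higher and 3 lower. *Alas1*, the enzyme that limits heme synthesis outside red blood cells and is repressed by heme, was at 76.1, 74.1, 73.3 and 79.9 CPM in *Nrg1GOF* and at 111, 104, 114 and 120 CPM in WT. All *Nrg1GOF* libraries were below all WT libraries, and the log2 fold change was -0.57 (SE 0.06, edgeR adjusted p = 0.000128).

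Later steps of the pathway moved in both directions. *Urod* fell by 0.33 (SE 0.07, edgeR adjusted p = 0.00552) and *Fech*, which inserts iron in the last step, fell by 0.28 (SE 0.09, edgeR adjusted p = 0.0484). The call of *Fech* held in 8 of 22 alternative settings and rested on WT libraries 1 and 2, as its log2 fold change was -0.43 against these alone and -0.10 against WT 3 and 4 alone. *Alad* rose by 0.44 (SE 0.10, edgeR adjusted p = 0.00719) and *Cpox* by 0.26 (SE 0.05, edgeR adjusted p = 0.00450).

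Among 11 tested genes of heme transport and breakdown, 1 (9.09%) was called higher and 1 lower, against 15.9% and 12.8% over all tested genes. *Pgrmc1*, a heme-binding membrane protein, rose by 0.34 (SE 0.05, edgeR adjusted p = 0.000970). *Flvcr2*, a transporter of the FLVCR family, was at 7.40, 7.52, 5.52 and 6.50 CPM in *Nrg1GOF* and at 12.1, 14.7, 11.6 and 11.2 CPM in WT. It fell by 0.88 (SE 0.13, edgeR adjusted p = 0.00111). *Blvra*, the major biliverdin reductase, had a log2 fold change of -0.03 (SE 0.09, edgeR adjusted p = 0.815), so neither reductase downstream of heme oxygenase was called.

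In the iron list 22 genes were tested, and 5 (22.7%) were called higher and 3 (13.6%) lower, against 15.9% and 12.8% over all tested genes. With 1 library left out, between 3 and 6 were called higher, at 3 in every case but those without *Nrg1GOF* library 3 or WT library 1. *Slc11a1*, the iron and manganese transporter of macrophage phagosomes, was at 4.86, 4.57, 4.36 and 4.38 CPM in *Nrg1GOF* and at 1.26, 1.91, 1.86 and 1.84 CPM in WT, a rise of 1.41 (SE 0.18, edgeR adjusted p = 0.000373). *Trf*, transferrin, was at 24.3, 24.1, 20.9 and 22.0 CPM in *Nrg1GOF* and at 10.3, 11.1, 9.10 and 6.19 CPM in WT, a rise of 1.32 (SE 0.16, edgeR adjusted p = 0.000289). These were the largest rises of the list, and in both genes the groups did not overlap. The exons of *Trf* share 2108 bases with *Gm20425* on the same strand, so its counts may be split. *Cp*, the ferroxidase ceruloplasmin, rose by 0.85 (SE 0.21, edgeR adjusted p = 0.0122).

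*Slc40a1*, the iron exporter ferroportin, was at 26.5, 23.2, 20.6 and 24.5 CPM in *Nrg1GOF* and at 19.6, 21.1, 19.1 and 19.4 CPM in WT. It was called with a log2 fold change of 0.26 (SE 0.08, edgeR adjusted p = 0.0456), but the groups overlapped and the call held in 5 of 22 alternative settings. *Tfrc*, the transferrin receptor, whose transcript is stabilised when iron is scarce, had a log2 fold change of -0.09 (SE 0.06, edgeR adjusted p = 0.297). *Fbxl5*, the iron-sensing subunit that degrades iron regulatory proteins, fell by 0.25 (SE 0.06, edgeR adjusted p = 0.0109). *Steap3*, an endosomal ferrireductase, fell by 0.40 (SE 0.07, edgeR adjusted p = 0.00173). *Pcbp2*, which encodes an RNA-binding protein that also serves as an iron chaperone, fell by 0.20 (SE 0.06, edgeR adjusted p = 0.0282), and its call held in 10 of 22 alternative settings. Its exons share 1573 bases with *Map3k12* on the opposite strand. The remaining called gene, *Heph*, named after its values were seen, had a log2 fold change of 0.28 (SE 0.09, edgeR adjusted p = 0.0441), and the groups overlapped.

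**Figure D4:**
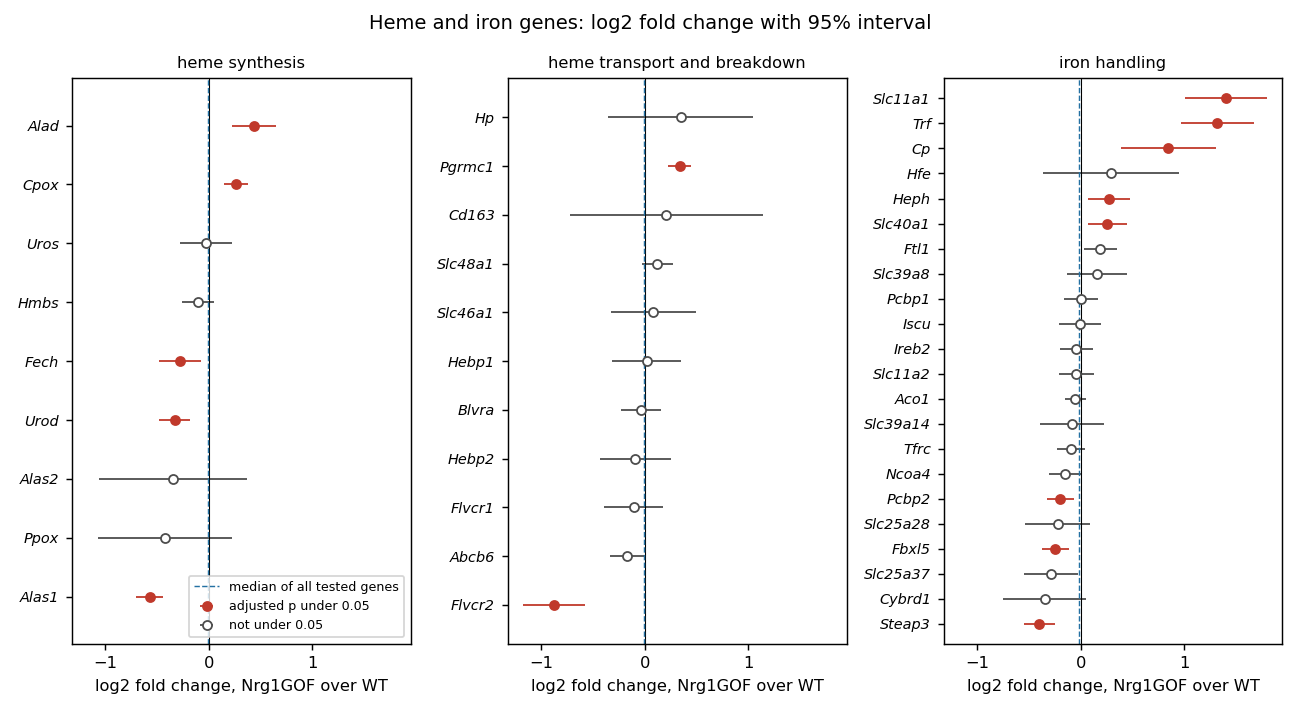
Log2 fold change of *Nrg1GOF* over WT on the x axis, with its 95% interval, for the genes of heme synthesis, heme transport and breakdown, and iron handling. Filled points are called genes, which lie on both sides of 0 and of the dashed median of all tested genes, from -0.88 for *Flvcr2* to 1.41 for *Slc11a1*.

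Markers of other cell types moved with *Hmox1*. All 13 tested macrophage markers of a list of 14 were called higher, with log2 fold changes from 0.44 to 1.55 and a median of 1.07, and 12 of them did not overlap between the groups. Over all tested genes 15.9% were called higher and 30.7% did not overlap. With 1 library left out, between 10 and 12 of the macrophage markers were called higher. The summed level of all 14, with no marker at 0 in all libraries, ran from 81.5 to 92.0 CPM in WT and from 159 to 185 CPM in *Nrg1GOF*, a ratio of the means of 1.97. The log2 fold change of *Hmox1*, 1.86, was above that of each of the 13. Per 100 CPM of macrophage markers, *Hmox1* stood at 11.6 to 13.1 CPM in WT and at 22.0 to 23.9 CPM in *Nrg1GOF*. Of the mean log2 CPM of these markers, 98.6% of the variance between libraries lay between the genotypes, so a fit with it as a covariate cannot tell them apart, and with it even *Nrg1* lost its call. In bulk ventricles, more cells of a type and more RNA per cell cannot be told apart, and the part of macrophages in the rise of *Hmox1* or *Slc11a1* was not tested.

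No red blood cell marker of 10 tested was called by edgeR, and 0 passed an unadjusted p under 0.05, DESeq2 or limma, with log2 fold changes from -0.40 to 0.04. The 13 markers in the table, tested or not, summed to 12924 and 12085 CPM in WT libraries 1 and 2. The sum was 5464 and 4384 CPM in WT libraries 3 and 4, with *Nrg1GOF* between 5397 and 8849 CPM. *Hmox1* did not follow this split within WT. *Alas2*, the red blood cell form of the first enzyme of heme synthesis, named after its values were seen, did follow it, at 140 and 134 CPM against 59.1 and 50.1 CPM, and was not called. With the red blood cell markers as a covariate, *Hmox1* had a log2 fold change of 1.88 and *Blvrb* one of 0.022.

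The labelled tissue was checked by its own markers. The 8 cardiomyocyte markers summed to between 35100 and 36452 CPM in WT and to between 26734 and 31808 CPM in *Nrg1GOF*, and 4 of them were called lower. Log2 fold changes of these 8 ran from -0.70 to 0.51, the highest not called. Of 8 atrial markers 4 were called higher, of 8 endothelial and endocardial markers 5, and of 8 fibroblast and epicardial markers all 8, with a median log2 fold change of 0.80 for the last. Over all tested genes 15.9% were called higher and 12.8% lower. With 1 library left out, between 2 and 5 atrial markers were called higher, at 2 without *Nrg1GOF* library 1, 2 or 3 or WT library 3. Between 2 and 5 cardiomyocyte markers were called lower, at 2 without *Nrg1GOF* library 1 or 2, and 1 was called higher without WT library 1. Their part in the values of *Hmox1* and the listed genes was not tested.

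**Figure D5:**
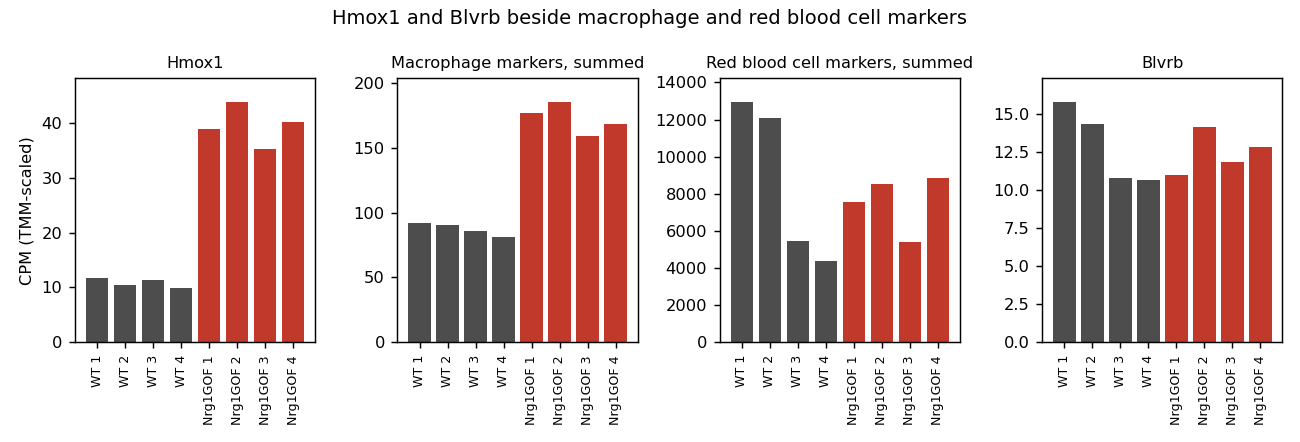
Levels of *Hmox1* and *Blvrb* beside the summed levels of the macrophage and the red blood cell markers, in CPM on the y axes, with 1 bar for each of the 8 libraries. *Hmox1* and the macrophage sum are higher in every *Nrg1GOF* library, whereas the red blood cell sum and *Blvrb* are highest in WT libraries 1 and 2.

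The genes most like *Hmox1* over the 8 libraries were found by the mean absolute difference of log2 CPM centred on the WT mean, among 15557 genes with a symbol. They were *Sdc4*, a cell-surface heparan sulfate proteoglycan (0.065), *Slco3a1*, an organic anion transporter (0.083), *Clu*, a secreted chaperone (0.13), *Etv5*, an ETS transcription factor induced by receptor tyrosine kinase signalling (0.14), and *Tesc*, a calcium-binding protein (0.14). Their log2 fold changes ran from 1.71 to 1.98. The nearest of the other 9 genes of the set was *Srxn1*, at rank 1874 of 15557. With values centred on the WT mean, this measure mostly follows the log2 fold change, by which *Srxn1* was at rank 2133 of 15580. The ranks therefore largely repeat the difference for which *Hmox1* was chosen and test no link between genes.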

How the data were processed

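The authors deposited 1 table of RSEM (1.3.1) expected counts per gene for 8 libraries, on GRCm38 and, per the file name, Ensembl release 91. The submitters' notes also name cutadapt. The aligner and the strand setting are not given in the sources used here. RSEM divides reads with more than 1 possible origin among genes, which left 8.42% to 13.2% of values per library with a fractional part. Library kits were directional, with 60-base single reads.

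Counts were rounded, filtered with filterByExpr, scaled by TMM and compared with the quasi-likelihood F-test of edgeR (4.0.16, R 4.3.3), with genotype as the sole term and Benjamini-Hochberg adjustment over all 15580 tested genes. All tests were two-sided. The test was checked on simulated data. limma (3.58.1) and DESeq2 (1.42.0) were used in alternatives only. Log2 CPM used a prior count of 2. A floor of 3 counts corresponded to 0.112 to 0.373 CPM, for counting error only. No source names separate litters, so p-values measure the spread between these samples. Replicate numbers 1 to 4 come from the titles of different embryos.

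Symbols, coordinates and exon lengths came from GENCODE M21 (GRCm38), a later release than that used for counting. Of 53465 identifiers, 53274 matched a symbol, and of 198 listed symbols 196 were found. A further gene of the iron list is not reported here. Exon overlaps of 60 bases or more were recorded. Near-identical transcripts were sought for the genes of the set only, with BLAST+ (2.17.0) at 95% identity. Figures were drawn with matplotlib (3.10.9).

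The set and all gene lists were chosen with earlier results of these data known. Besides the set, the text names *Nrg1*, *Keap1*, *Bach1*, *Slc7a11*, *Ftl1*, *Tfrc*, *Slc40a1* and *Blvra* whatever their values, the 5 genes most like *Hmox1*, and in other lists all called genes where there were at most 6, otherwise the 3 highest and 3 lowest among them. Genes named outside this rule are marked as such, and *Pir* and *Prdx1* were named for their promoter match. In the marker lists counts, ranges, medians and sums are given, with single genes named only where their sign changed. Alternatives were 2 scalings, 2 filters, 3 other tests, thinning, the replicate block, WT pairs summed or taken alone, covariates of red blood cell or macrophage markers, and leaving out each library in turn.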

Additional observations from a re-analysis of the deposited data

Results flagged for a closer look

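A library far from the others of its group was found in 6 of 164 groups of 4 values, where chance at 1 in 20 gives 8.2. *Nrg1GOF* library 4 had a total of 8038641 counts, against 20578081 to 22547833 in the other 3. The same library had the highest *Nqo1* level of its group, at 4.25 CPM against 3.42 to 3.54, the highest *Keap1* level, at 74.5 CPM against 59.7 to 61.6, and the highest *Mafk* level, at 41.6 CPM against 29.5 to 30.3. *Slc11a1* was low in WT library 1, at 1.26 CPM against 1.84 to 1.91. *Hspa1b*, an inducible heat shock gene, was low in *Nrg1GOF* library 3, at 5.60 CPM against 6.31 to 6.43.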

How the results depend on the processing

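In 21 of 22 alternatives *Hmox1* stayed called, at 1.80 to 1.92 when 1 library was left out. The exception was the macrophage covariate, with a log2 fold change of 0.34 and an edgeR adjusted p of 1.00. That fit could not separate its covariate from genotype, called 0 of all genes, and so gave 0 calls in the set, the further NRF2 targets and the heme and iron genes in either direction. Of the 10 genes, 1 was called higher with the WT pairs summed, against WT 1 and 2 alone and with thinning. The further NRF2 targets called lower numbered 0 with library totals alone, with the replicate block, with the WT pairs summed and against either WT pair alone, and 0 to 1 when 1 library was left out. The heme and iron genes called lower numbered 4 with the WT pairs summed and with thinning, and 5 to 7 when 1 library was left out.

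Over all genes, 2464 were called with the WT pairs summed and 4524 with the replicate block. The block left *Hmox1* at 1.85 and 2 of the 10 genes called higher. Same-numbered libraries deviated together only weakly (correlations 0.049 to 0.199), and 4 of 8 correlated best with their own number, so the numbers were not taken as pairs. The cause of these shifts was not tested.

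Apart from the macrophage covariate, signs changed in genes whose log2 fold change was within 0.14 of 0. They were *Nfe2l2* (0.021) and *Blvra* (0.0095) with library totals, *Slc7a11* (-0.23) against WT 1 and 2, *Blvrb* (0.22) and *Keap1* (-0.0014) against WT 3 and 4, *Nqo1* (-0.035) and *Nfe2l2* (0.0061) with thinning, and *Blvrb* (0.022) with the red blood cell covariate. The macrophage covariate gave *Nqo1* -0.24, *Gclc* -0.036, *Gclm* -0.16, *Nfe2l2* 0.035, *Bach1* -0.26, *Ftl1* -0.24, *Nfe2l1* -0.037, *Pgrmc1* -0.041, *Trf* -0.67, *Fbxl5* 0.16, *Pcbp2* 0.079, *Gpx8* -0.057, *Mt2* 0.21, *Hspa1b* -0.14, *Ptprc* -0.54, *Adgre1* -1.27 and *Mrc1* -0.45. Leaving out 1 library spanned -0.032 to 0.065 for *Nqo1*, -0.13 to 0.064 for *Blvrb*, -0.062 to 0.022 for *Nfe2l2*, -0.11 to 0.0048 for *Fth1*, -0.13 to 0.82 for *Slc7a11*, -0.062 to 0.043 for *Blvra* and -0.034 to 0.061 for *Keap1*. Of 2462 values in all, 2116 kept direction and side of the threshold, 222 lost a call, 4 gained one, 82 counts moved and 38 changed sign.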

Other observations

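Other antioxidant genes not classed here as NRF2 targets, among them enzymes that remove peroxides or superoxide, moved in both directions. Of 22 tested, 4 (18.2%) were called higher and 8 (36.4%) lower, against 15.9% and 12.8% over all tested genes, with a median log2 fold change of -0.05. *Gpx3*, the secreted glutathione peroxidase, was at 691, 727, 577 and 687 CPM in *Nrg1GOF* and at 331, 340, 293 and 282 CPM in WT. It rose by 1.11 (SE 0.09, edgeR quasi-likelihood adjusted p = 3.66e-05), and every *Nrg1GOF* library was above every WT library. *Gpx7* and *Gpx8*, peroxidases of the endoplasmic reticulum, rose by 0.63 (SE 0.06, edgeR adjusted p = 0.000122) and 0.48 (SE 0.07, edgeR adjusted p = 0.00101).

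*Sod2*, the mitochondrial superoxide dismutase, was at 176, 183, 168 and 216 CPM in *Nrg1GOF* and at 258, 259, 257 and 264 CPM in WT. It fell by 0.49 (SE 0.07, edgeR adjusted p = 0.00111), with no overlap. *Txnrd2*, the mitochondrial thioredoxin reductase, fell by 0.37 (SE 0.08, edgeR adjusted p = 0.00683), and *Txnrd3*, the form best known from testis, fell by 0.42 (SE 0.08, edgeR adjusted p = 0.00316). Of the 3 thioredoxin reductases, *Txnrd1* was thus the one not called.

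Of 10 metal and heat shock genes, 1 was called higher and 2 lower, shares near those over all tested genes (15.9% and 12.8%). *Mt1* and *Mt2*, metallothioneins induced by zinc and by oxidants, fell by 0.56 (SE 0.14, edgeR adjusted p = 0.0138) and 0.77 (SE 0.23, edgeR adjusted p = 0.0324), although the groups overlapped in both. The call of *Mt2* held in 13 of 22 alternative settings. With 1 library left out, 1 gene instead of 2 was called lower without *Nrg1GOF* library 1, 2 or 3 or WT library 3 or 4. *Hspa1b* rose by 0.71 (SE 0.13, edgeR adjusted p = 0.00371). *Hspa1a*, named after its values were seen, had a log2 fold change of 0.61 (SE 0.27, edgeR adjusted p = 0.125) and was not called. Whether reads are shared between these genes was not tested.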
